A study of Mus musculus with 11 samples.

Results

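The conjugating enzymes and carboxylesterases are the 75 genes, of 24250 in the expression table of all libraries, whose symbols name a cytosolic or kappa glutathione S-transferase (GST), a microsomal GST (Mgst), a UDP-glucuronosyltransferase (UGT), a sulfotransferase (SULT) or a carboxylesterase (CES). Within these families membership went by symbol alone, without measured values: 23 were cytosolic or kappa GSTs, 3 microsomal GSTs, 19 UGTs, 12 SULTs and 18 CESs. RNA had been sequenced from mouse small intestine in 11 libraries of 3 groups. ND (read as normal diet) had 3 libraries, HFD (read as high-fat diet) had 4, and the mice given 5 Substances Powder with Poria (FSP, a Chinese herbal preparation whose number the labels write as a word) had 4. The labels do not give the diet of the FSP mice, although the series title speaks of obese mice, and no age, sex, strain, dose, duration, gut segment or batch is given in the sources used here. The labels list the libraries of a group as separate samples without saying that each came from its own animal. P-values therefore reflect differences among the samples as deposited, and some of that variation could be technical.

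These enzymes make lipophilic compounds easier to excrete. GSTs join glutathione to electrophiles, UGTs transfer glucuronic acid and SULTs transfer sulfate to drugs, bile acids and steroids, and CESs cleave ester and amide bonds, including those of many prodrugs and of acylglycerols. In the small intestine they sit mostly in the absorptive epithelium, where they act on what is taken up from the lumen before it reaches the liver, and several of the families are encoded in tandem gene clusters.

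The stretches upstream of 5 members are shown because the results below turn on them. Sequences are from RefSeq on GRCm38.p6, the same assembly as the submitters' mm10, and each is the 250 bases before a transcript start listed by RefSeq, read 5′ to 3′ on the gene's strand. That start is not always the outer end of the gene span given with a member: it is for Gsta1 and Ugt2b5, but lies 47 bases inside the span of Gsta2 and 853 bases inside that of Gstt1, whose window falls wholly within the span. Gsta1 (chr9:78230419-78230668, plus strand) and Gsta2 (chr9:78347146-78347395, minus strand) are paralogs that were both higher in HFD. Capitals in this pair mark 4 runs of at least 12 identical bases in the same order, the longest of 29 bases, which together cover 68 bases or 27.2% of each window.
Gsta1: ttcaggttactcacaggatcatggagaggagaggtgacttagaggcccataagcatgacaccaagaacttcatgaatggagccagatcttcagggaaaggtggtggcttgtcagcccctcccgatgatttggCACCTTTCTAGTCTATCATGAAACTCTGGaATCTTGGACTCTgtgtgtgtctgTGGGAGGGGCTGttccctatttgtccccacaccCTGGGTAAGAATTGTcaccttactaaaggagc
Gsta2: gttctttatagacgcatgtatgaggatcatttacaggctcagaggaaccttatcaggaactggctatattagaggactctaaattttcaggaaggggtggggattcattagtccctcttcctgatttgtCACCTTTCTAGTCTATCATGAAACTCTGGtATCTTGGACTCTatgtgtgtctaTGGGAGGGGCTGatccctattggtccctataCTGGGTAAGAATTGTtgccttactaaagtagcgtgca
Gstt1 (chr10:75797732-75797981, minus strand), Gstm6 (chr3:107943735-107943984, minus strand, of its 3 windows the one whose start is also a GENCODE transcript start, 9907 bases inside the RefSeq span) and Ugt2b5 (chr5:87140341-87140590, minus strand) were the members that differed in both HFD against ND and FSP against HFD, and nothing is capitalised in them.
Gstt1: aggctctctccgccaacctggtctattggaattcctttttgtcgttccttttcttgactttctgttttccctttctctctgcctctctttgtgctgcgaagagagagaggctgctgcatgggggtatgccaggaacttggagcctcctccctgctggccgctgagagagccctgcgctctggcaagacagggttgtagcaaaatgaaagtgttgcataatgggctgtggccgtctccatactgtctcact
Gstm6: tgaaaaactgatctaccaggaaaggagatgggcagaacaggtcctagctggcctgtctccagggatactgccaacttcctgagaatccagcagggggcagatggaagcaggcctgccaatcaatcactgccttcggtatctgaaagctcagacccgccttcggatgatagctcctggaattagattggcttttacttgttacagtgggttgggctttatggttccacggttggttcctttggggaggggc
Ugt2b5: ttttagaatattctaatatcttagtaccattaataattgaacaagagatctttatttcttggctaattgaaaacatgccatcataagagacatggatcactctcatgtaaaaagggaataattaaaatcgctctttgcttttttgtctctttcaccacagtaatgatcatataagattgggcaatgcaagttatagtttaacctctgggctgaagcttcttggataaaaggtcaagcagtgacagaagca
A window was found for 65 of the 75 members, for 38 of the 43 that were tested and for 11 of the 12 that were higher in HFD (not for Gstt2). The windows were searched on both strands for 4 sets of letters that do not overlap one another. The antioxidant response element core TGACNNNGC lay in a window of 4 of the 38 tested members (Gsta3, Gstm5, Gstm7 and Mgst1). The Gstm7 match was in a window wholly within the outer gene span, whose listed transcript start lies 263 bases inside it. Counted by window, the core lay in 5.13% of the 78 windows of the 65 members and in 10.2% of all 32851 windows. Among tested members the xenobiotic response element TNGCGTG lay in windows of Gsta2, beginning 9 bases before the listed transcript start and so within the outer gene span, and Sult1d1. It lay in 3.85% of the 78 member windows, against 4.10% of all windows. TATAAA lay in windows of 6 tested members (Ces1g, Gsta2, Gstm1, Gstm7, Mgst2 and Sult6b2) and in 15.4% of the 78 member windows, against 12.4% of all windows. The HNF4 site CAAAGTCCA lay in 0 of the 78 member windows, against 0.384% of all windows. The printed windows of Gsta1, Gstt1, Gstm6 and Ugt2b5 held none of the 4, which says only that these letters are not in those windows.

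Expression was deposited as FPKM, the number of fragments scaled to transcript length and to the size of the library. An FPKM of 1 over 1 kb stood for an estimated 31.7 fragments in the shallowest library (HFD 1) and 38.1 in the deepest (FSP 4). The estimates used low values of 425 single-exon genes, of which 91 to 123 entered in a library. Each depth was picked to bring the largest share of these within 0.05 of a whole number of fragments. That share was 89.5% to 94.9% and, being fitted, is no independent check. The epithelial markers Vil1 (738 to 1159 FPKM) and Fabp2 were high in each library. Of the 6 epithelial markers 1, Alpi, was higher in HFD than in ND (289 and 685 FPKM, limma adjusted p = 0.00228), and 1, Epcam, was lower (828 and 562 FPKM, limma adjusted p = 0.0296) and higher in FSP (902 FPKM) than in HFD (limma adjusted p = 0.0306). HFD 1 stood apart: mitochondrially encoded genes held 40.4% of its summed FPKM, against 12.9% to 26.3% in the other 10. Tests used limma on log2(FPKM + 1) over the 10296 genes with a mean of at least 1 FPKM, with Benjamini-Hochberg adjustment over all of them and a threshold of 0.05. Log2 changes are given on that scale, where the added 1 shrinks the change of a weakly expressed gene.

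Of the 75 members 43 had a mean of at least 1 FPKM over the 11 libraries and were tested, 11 lay between 0.1 and 1 FPKM, and 21 lay below 0.1. By family 20 of the 23 cytosolic and kappa GSTs, 3 of 3 microsomal GSTs, 7 of 19 UGTs, 4 of 12 SULTs and 9 of 18 CESs were tested. The 21 members below 0.1 FPKM included 10 UGTs, among them Ugt1a2, Ugt1a5, Ugt1a6a, Ugt3a1 and Ugt3a2, and 5 SULTs, among them the estrogen sulfotransferase Sult1e1. Each family was carried by few genes. Gsto1, an omega-class GST that also acts as a thiol transferase, averaged 434 FPKM and made up 37.7% of the summed FPKM of its family, with the pi-class Gstp1 next at 217 FPKM. Mgst1, a GST and peroxidase of the outer mitochondrial and endoplasmic reticulum membranes, made up 49.4% of the microsomal GSTs. Ugt2b34 made up 70.3% of the UGTs. Sult1b1, Sult1d1 and Sult2b1, the last of which sulfates sterols, made up 96.5% of the SULTs, and Ces2e, Ces2a and Ces2c 90.3% of the CESs, with Ces2e at 463 FPKM the highest of the 75.

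**Figure D1:**
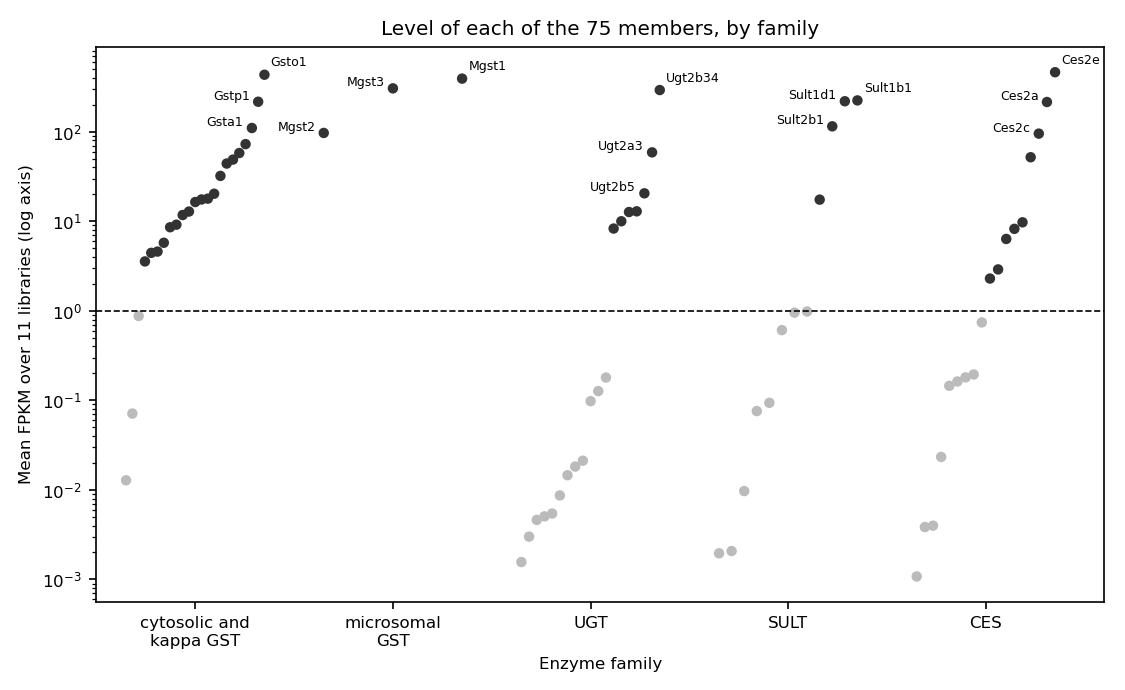
Mean FPKM over the 11 libraries (log axis) of each of the 75 members, in order of level within its family. Dark points are the 43 members at or above the dashed line at 1 FPKM, grey points are the rest, and the 3 highest of each family are named; the UGT points spread from below 0.01 to 293 FPKM.

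The members together held 0.493% (HFD 1) to 1.05% (HFD 4) of a library's summed FPKM. The cytosolic and kappa GSTs summed to 785, 958 and 1086 FPKM in ND, to 1055, 1152, 1627 and 1942 in HFD and to 951, 942, 1190 and 969 in FSP. ND 3 lay above HFD 1 by this sum, so these groups overlapped. The CESs summed to 734 to 811 FPKM in ND, and in HFD to 442, 486, 1073 and 1433, so that HFD 1 and HFD 2 lay below every ND library and HFD 3 and HFD 4 above. The SULT sums ranged from 482 to 670 FPKM over the 11 libraries and overlapped between the 3 groups.

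**Figure D2:**
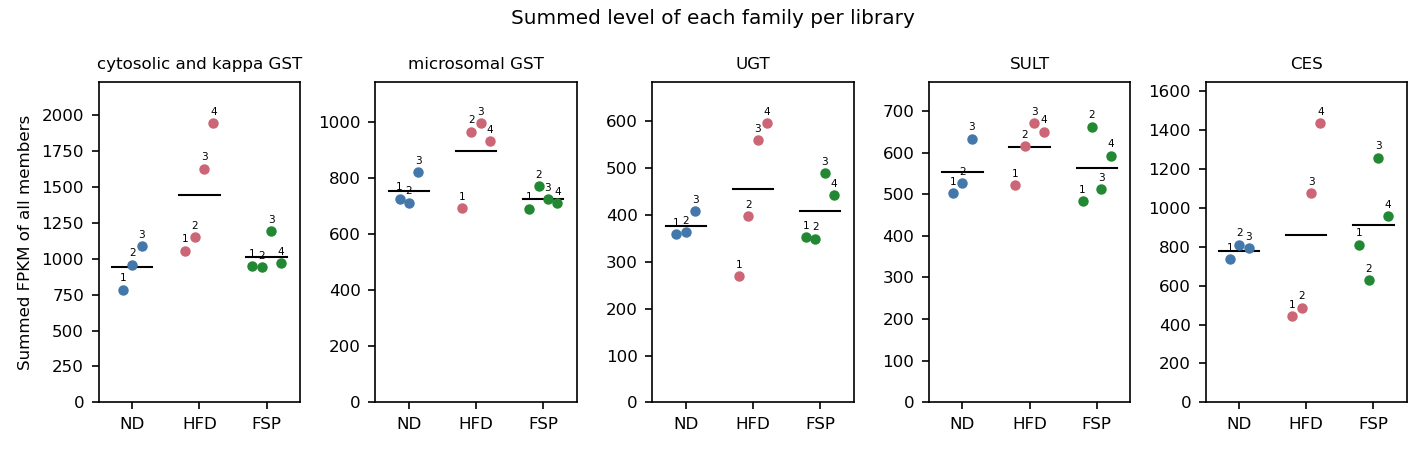
Summed FPKM of the members of each family, 1 point a library with its replicate number and a line at the group mean, on axes that start at 0. The GST sum has its highest value, 1942 FPKM, in HFD 4, and in the CES panel HFD 1 and HFD 2 lie far below HFD 3 and HFD 4.

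HFD was compared with ND to see how the diet group differed in these enzymes. Of the 43 members tested, 12 were higher in HFD, 0 were lower and 31 did not pass, while 17 in all had an unadjusted p under 0.05. Over all 10296 genes tested 5.36% were higher and 15.1% lower. The median log2 change was 0.43 over the tested members and −0.21 over all genes, and 35 of 43 members had a positive change, against 28.5% of all genes. Without overlap 14 of 43 members lay above ND and 0 below, against 9.28% and 33.6% of all genes tested. The 12 were 7 cytosolic or kappa GSTs, Mgst3, Ugt2b5, Ugt2a3, Sult6b2 and Ces2g. Among them Gsta2 and Sult6b2 had ND means of 0.43 and 0.09 FPKM, below the filter level, so their entry into the test depended on the groups in which they were higher. The family medians were 0.61 for cytosolic and kappa GSTs, 0.42 for microsomal GSTs, 0.49 for UGTs, 0.15 for SULTs and 0.28 for CESs, and stayed above 0 under the 4 other scalings tried. With median-ratio scaling, which brings the median of all genes from −0.21 to −0.01, 1095 genes were higher and 923 lower in place of 552 and 1557, and 17 members were higher. The changes of 10 members near 0, among them Gstp1, Gstm1, Ces2a and Sult1d1, took the other sign under at least 1 of the scalings. Without ND 1 or without ND 2, 7 members were higher.

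Marker genes of the upper and lower small intestine also differed between ND and HFD. Of 10 proximal small intestine markers tested 8 were higher in HFD and 1, the iron exporter Slc40a1, was lower. The proximal list of 11 summed to 2143 to 10719 FPKM in ND, 36417 to 49309 in HFD and 14856 to 33738 in FSP. Of 10 distal markers 9 were lower in HFD and 0 higher, with the ileal bile acid binding protein Fabp6 at 397 to 9821 FPKM in ND and 1.26 to 4.31 in HFD. The distal list summed to 2780 to 13530 FPKM in ND, 879 to 1280 in HFD and 1529 to 5221 in FSP. No proximal or distal marker was listed at 0 in any library. The part of these markers in the members' differences was not tested. The labels give no gut segment, so a difference between the groups in the segment sampled and a difference in diet or treatment cannot be told apart. In whole tissue, fewer cells of a type and less RNA per cell cannot be told apart.

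**Figure D3:**
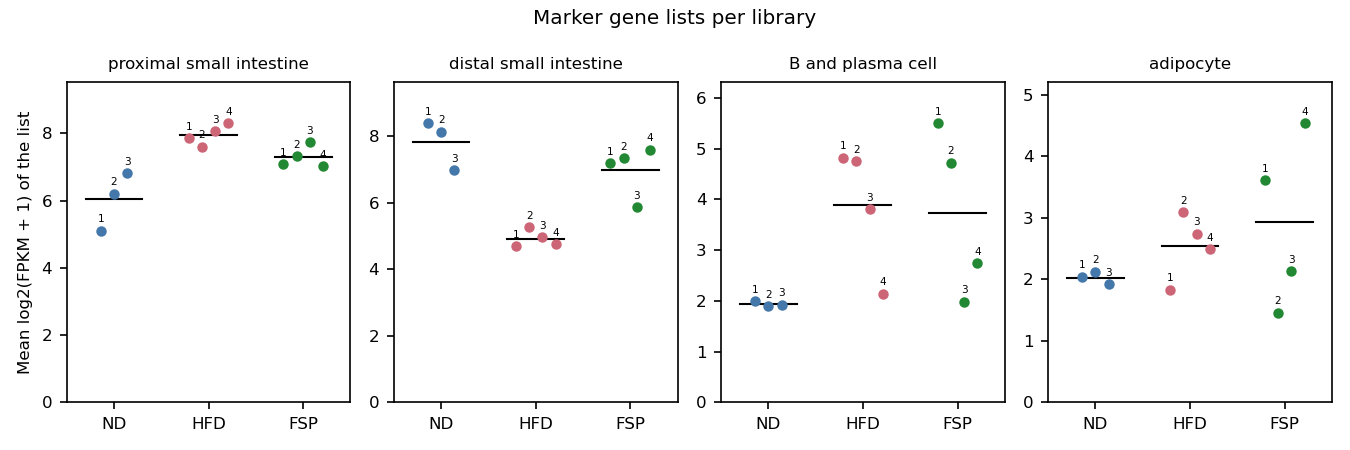
Mean log2(FPKM + 1) of 4 marker lists in each library, with replicate numbers and a line at the group mean. The proximal list lies at 5.11 to 6.81 in ND and 7.60 to 8.30 in HFD, the distal list at 6.97 to 8.38 in ND and 4.70 to 5.27 in HFD, and the B and plasma cell list splits HFD and FSP.

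Among the alpha-class GSTs, which conjugate products of lipid peroxidation, Gsta1 (chr9:78230669-78242683) was at 21.9, 27.1 and 31.5 FPKM in ND, 151, 109, 225 and 306 in HFD and 67.2, 63.8, 136 and 74.2 in FSP. The 3 groups followed one another with ND lowest, HFD did not overlap ND, and FSP 3 lay above HFD 2. The mean was 26.9 ± 4.82 FPKM in ND (SD, n = 3) and 198 ± 86.7 in HFD (SD, n = 4), 7.36-fold higher, with a log2 change of 2.74 (SE 0.34, limma adjusted p = 0.000789), the smallest p of any member. Gsta2 (chr9:78331018-78347192), its neighbour, was at 0.62, 0.35 and 0.32 FPKM in ND, 3.56, 2.10, 9.29 and 15.6 in HFD and 1.62, 0.99, 4.06 and 0.70 in FSP. Its log2 change was 2.30 (SE 0.52, limma adjusted p = 0.0111). It passed the filter through HFD and FSP (means of 7.64 and 1.84 FPKM), since its ND mean was 0.43 FPKM. Gsta1 and Gsta2 share 44.6% and 44.8% of the 50-base windows of their transcripts with other members, so the split of reads between them is uncertain. Gsta4, a specialist for hydroxyalkenals, had a log2 change of 1.41 and did not pass (limma adjusted p = 0.0689). Gsta3, on chromosome 1, did not pass either (1.04, limma adjusted p = 0.159).

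Gstt1 (chr10:75783813-75798584), a theta-class GST that acts on halogenated alkanes and epoxides, was at 17.3, 24.5 and 33.9 FPKM in ND, 76.9, 52.4, 75.2 and 90.7 in HFD and 29.5, 24.3, 36.3 and 25.0 in FSP. HFD overlapped neither of the other groups, while FSP lay within or close to the range of ND. Its mean was 2.93-fold higher in HFD than in ND (25.2 ± 8.30, n = 3, and 73.8 ± 15.9, n = 4, SD), a log2 change of 1.53 (SE 0.24, limma adjusted p = 0.00178). Its neighbour Gstt2 was at 13.2, 14.2 and 15.9 FPKM in ND and 16.7, 20.3, 20.5 and 21.5 in HFD, a log2 change of 0.43 (SE 0.13, limma adjusted p = 0.0412) that was lost in 11 of 21 alternatives (limma adjusted p up to 0.158), among them those without HFD 2, HFD 3, HFD 4, FSP 1 or any ND library. Gstt3, in the same cluster of 4 theta genes on chromosome 10 (a gene named here after its values were seen), had a log2 change of −0.08, which turned positive under other scalings.

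The 7 mu-class GSTs of one cluster (chr3:107895854-108045179) were each tested and differed among themselves. Gstm6 was at 3.59, 5.83 and 8.51 FPKM in ND, 24.4, 19.4, 34.7 and 45.6 in HFD and 8.04, 7.86, 17.1 and 5.51 in FSP. HFD lay above both other groups in each of its libraries, and the change from ND was 2.19 (SE 0.37, limma adjusted p = 0.0027). Gstm7 was at 1.92, 3.57 and 4.58 FPKM in ND, 7.99, 5.02, 11.2 and 13.6 in HFD and 4.13, 3.16, 5.14 and 3.01 in FSP, with a change of 1.24 (SE 0.30, limma adjusted p = 0.016). This call was lost without ND 1 or without ND 2 (limma adjusted p up to 0.0847 over the alternatives). Gstm3, the most abundant of the cluster at 72.8 FPKM, was at 31.0, 56.2 and 88.2 in ND against 49.4, 73.7, 160 and 193 in HFD, and its change of 0.93 did not pass (limma adjusted p = 0.161). Gstm1, known for its broad range of substrates, had the smallest change of the 7, 0.04.

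Gstk1, the kappa-class enzyme of mitochondria and peroxisomes (chr6:42245935-42250441), was at 30.2, 38.2 and 44.0 FPKM in ND, 70.3, 56.8, 87.4 and 98.9 in HFD and 62.4, 40.9, 61.3 and 46.9 in FSP. HFD did not overlap ND and its mean was 2.09-fold higher, a log2 change of 1.03 (SE 0.21, limma adjusted p = 0.00747). The 2 most abundant cytosolic GSTs moved little: Gsto1 changed by 0.18 (limma adjusted p = 0.367) and Gstp1 by 0.05 (limma adjusted p = 0.881), with 62.3% of the windows of Gstp1 shared with other members. Gstp3 was above ND in each HFD library but did not pass (0.54, limma adjusted p = 0.0524). Gstz1, which isomerises maleylacetoacetate in tyrosine breakdown, was at 6.85 to 9.23 FPKM in ND and 7.73 to 12.9 in HFD, and Gstp2 averaged 17.4 ± 1.38 in ND (SD, n = 3) and 19.9 ± 5.37 in HFD (SD, n = 4). Both overlapped between groups and did not pass.

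**Figure D4:**
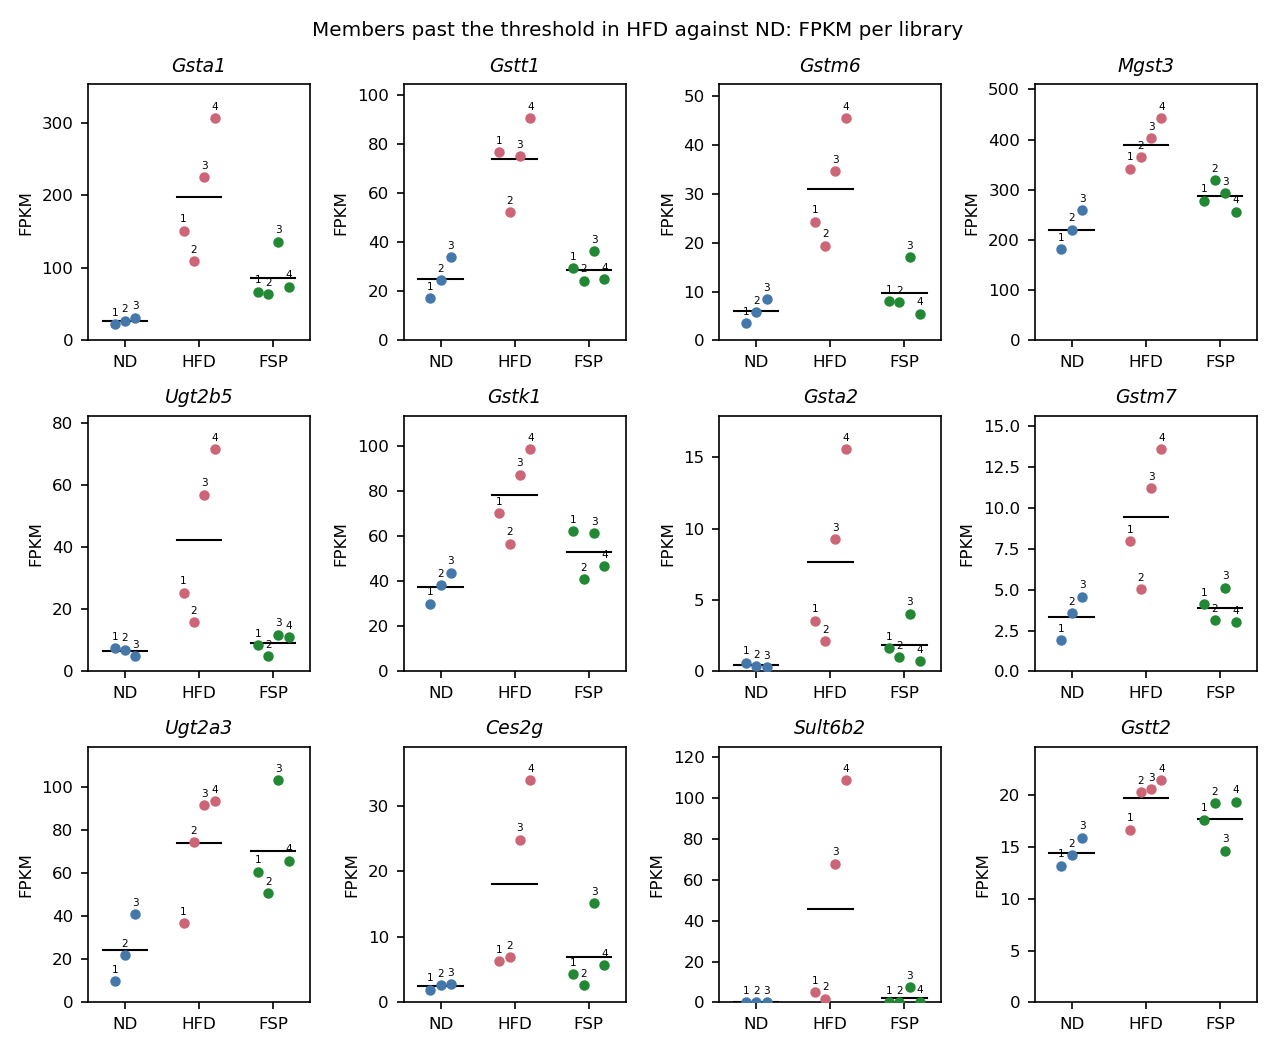
FPKM of the 12 members past the threshold in HFD against ND, 1 point a library with its replicate number, a line at the group mean and axes that start at 0. In 11 of the 12 panels HFD does not overlap ND (the exception is Ugt2a3), and HFD 4 is the highest HFD library in each. The panels were picked by this same comparison, and over all genes tested 9.28% lay above ND without overlap.

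Mgst3 (chr1:167371966-167393841), a microsomal GST and peroxidase that also makes leukotriene C4, was at 182, 221 and 259 FPKM in ND, 342, 365, 403 and 443 in HFD and 279, 319, 293 and 257 in FSP. HFD did not overlap either group. Its mean was 1.76-fold higher in HFD than in ND (221 ± 38.9, n = 3, and 388 ± 44.3, n = 4, SD), a log2 change of 0.82 (SE 0.15, limma adjusted p = 0.00354). Mgst2, a related leukotriene C4 synthase, changed by 0.42 and did not pass (limma adjusted p = 0.0626). Mgst1, at 449 ± 36.4 FPKM in ND (SD, n = 3) and 397 ± 105 in HFD (SD, n = 4), did not pass either (limma adjusted p = 0.419).

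Of the 7 UGTs tested 2 were higher in HFD, both in the cluster on chromosome 5 that also holds Sult1b1, Sult1d1 and Sult1e1 (chr5:86889770-87591611, 12 members). Ugt2b5, of the subfamily that glucuronidates steroids and bile acids, was at 7.60, 7.06 and 5.02 FPKM in ND, 25.4, 15.8, 57.0 and 71.7 in HFD and 8.53, 4.82, 11.9 and 11.1 in FSP. HFD lay above both other groups, which overlapped each other, and the change from ND was 2.31 (SE 0.45, limma adjusted p = 0.0056). Ugt2b5 shares 41.7% of its windows with other members, most with Ugt2b38, whose highest value in any library was 0.45 FPKM. Ugt2a3, which glucuronidates bile acids, was at 9.72, 22.0 and 40.8 FPKM in ND, 36.7, 74.1, 91.4 and 93.4 in HFD and 60.6, 50.7, 103 and 65.6 in FSP. ND 3 lay above HFD 1, and the change from ND was 1.70 (SE 0.44, limma adjusted p = 0.0205), a call lost without HFD 3, ND 1 or ND 2 and without the filter on low values (limma adjusted p up to 0.0925). Ugt2b34, by far the most abundant UGT, was at 301 ± 11 FPKM in ND (SD, n = 3) and 288 ± 72.1 in HFD (SD, n = 4) and did not pass (limma adjusted p = 0.712). Ugt2b35 and Ugt2b36, its neighbours, had changes of 0.81 and 0.49 that did not pass (limma adjusted p = 0.144 and 0.237). In both, HFD 3 and HFD 4 were the highest libraries of the 11, at 20.1 and 23.9 FPKM for Ugt2b35 and 13.7 and 13.4 for Ugt2b36.

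The UGT1A enzymes come from 1 locus (chr1:88070779-88220002) in which 8 listed members use separate first exons and common later exons, so their values are uncertain: Ugt1a7c shares 69.3% and Ugt1a1 58.2% of its windows. Ugt1a1, the bilirubin enzyme, was at 8.33, 13.4 and 17.9 FPKM in ND, 1.19, 6.44, 15.9 and 20.3 in HFD and 7.54, 3.31, 26.6 and 18.8 in FSP. Ugt1a7c was at 14.3, 17.2 and 19.6 FPKM in ND, 1.53, 4.95, 19.1 and 26.3 in HFD and 5.72, 1.88, 16.4 and 15.2 in FSP. In both genes HFD 1, HFD 2, FSP 1 and FSP 2 lay below each ND library, and neither passed (changes of −0.64 and −0.91, limma adjusted p = 0.547 and 0.403).

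Sult6b2 (chr6:142785781-142804466), a sulfotransferase whose substrates are not well defined, had the largest change of any member and the widest spread. It was at 0.06, 0.06 and 0.16 FPKM in ND, 4.88, 1.79, 68.0 and 109 in HFD and 0.06, 0.22, 7.59 and 0.30 in FSP. The HFD libraries lay above all others except that FSP 3 exceeded HFD 1 and HFD 2. The log2 change from ND was 4.10 (SE 1.16, limma adjusted p = 0.0301). Sult6b2 passed the filter through HFD and FSP (means of 45.9 and 2.04 FPKM), since its ND mean was 0.09. The call was lost without HFD 3, HFD 4 or any ND library and without the filter (limma adjusted p up to 0.096). The other 3 SULTs tested lay between changes of −0.12 (Sult1d1) and 0.16 (Sult1b1). Sult2b1 was above ND in each HFD library, but HFD 3, at 105.97 FPKM, nearly met ND 3, at 105.92. Its change of 0.14 did not pass (limma adjusted p = 0.524).

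Ces2g (chr8:104961596-104969537) was the 1 CES of 9 tested that was higher in HFD. It was at 1.93, 2.62 and 2.81 FPKM in ND, 6.31, 6.93, 24.8 and 34.0 in HFD and 4.36, 2.63, 15.1 and 5.69 in FSP. HFD did not overlap ND, and the change was 2.14 (SE 0.59, limma adjusted p = 0.0258), a call lost in the same alternatives as that of Sult6b2 (limma adjusted p up to 0.0964). Ces2a, which with its neighbours hydrolyses prodrugs and acylglycerols, was at 195, 200 and 162 FPKM in ND and 116, 81.9, 318 and 436 in HFD. HFD 1 and HFD 2 lay below ND and HFD 3 and HFD 4 above it, and the change was 0.04 (limma adjusted p = 0.954). Ces2c had the same split of the HFD libraries around ND (78.9 to 97.4 FPKM in ND and 43.3, 47.8, 130 and 189 in HFD). Ces2e, the most abundant, was at 435 ± 49.5 FPKM in ND (SD, n = 3) and 395 ± 157 in HFD (SD, n = 4, limma adjusted p = 0.567). Ces1f, of the subfamily best known from liver, spanned 37.3 to 63.0 FPKM in ND and 32.1 to 137 in HFD (change 0.28, limma adjusted p = 0.665). Ces1e was at 2.96, 3.07 and 3.99 FPKM in ND and 4.01, 5.21, 12.7 and 18.3 in HFD, so that the groups did not overlap but HFD 1 nearly met ND 3, and it did not pass (change 1.14, limma adjusted p = 0.0657). The changes of Ces1d, Ces1g and Ces2b were 0.56, 0.30 and 0.25, with overlapping groups and limma adjusted p of at least 0.545. In each of these 3, as in Ces1e and Ces1f, HFD 4 was the highest of the 11 libraries and HFD 3 above HFD 1 and HFD 2.

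Particular libraries were often the highest or lowest of their group, some of them over all genes as well. HFD 4 was the highest of the 4 HFD libraries in 37 of the 43 tested members, against 39.7% of all genes tested, and the highest of all 11 libraries in 34, against 10.1%. HFD 1 was the lowest HFD library in 27 (69.5% of all genes), and HFD 2 in 14 (11.3%). The count of HFD 1 was near its share over all genes. B and plasma cell markers were not of one order in HFD. Of the 8 with a value 6 were lowest in HFD 4, while Xbp1 (37.1, 58.0, 67.7 and 75.9 FPKM in HFD 1 to HFD 4) and Jchain (70.0, 151, 142 and 121) were lowest in HFD 1. Cd79a was at 99.3, 59.3, 22.8 and 1.31 FPKM in HFD 1 to HFD 4, at 95.3, 44.8, 0.73 and 4.07 in FSP 1 to FSP 4 and at 0.75 to 1.47 in ND. The 8 together summed to 115 to 163 FPKM in ND, 201 to 344 in HFD and 186 to 868 in FSP, and 0 of 8 passed by limma in HFD against ND (5 at an unadjusted p under 0.05). Within FSP, FSP 3 was highest in 25 of the 43 members (25.6% of all genes). FSP 2 was lowest in 27 (60.0%), also near its share over all genes. Within ND, ND 3 was highest in 27 (32.6%) and ND 1 lowest in 27 (40.0%), and the proximal list was lowest in ND 1 (5.11) and highest in ND 3 (6.81) on the mean log2(FPKM + 1) scale. The part of these markers in the members' spread was not tested.

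FSP was compared with HFD to see how the group given the powder differed from the high-fat group. Of the 43 members tested 3 were lower in FSP (Gstt1, Gstm6 and Ugt2b5), 0 were higher and 40 did not pass, while 17 in all had an unadjusted p under 0.05. Over all genes tested 0.913% were lower and 2.83% higher. The median change was −0.42 over the tested members and 0.12 over all genes, and 7 of 43 members had a positive change, against 71.2% of all genes. The family medians were −0.68 for cytosolic and kappa GSTs, −0.27 for microsomal GSTs, −0.15 for UGTs, −0.10 for SULTs and −0.42 for CESs, and the SULT median was at 0.00 with FPKM rescaled to equal totals. This comparison uses the same HFD libraries as HFD against ND, so opposite signs in both are not independent. Median-ratio scaling gave 181 genes higher and 169 lower in place of 291 and 94, and 8 members lower. The count of 3 became 0 without FSP 4, 1 without HFD 3, HFD 4, FSP 1, FSP 2 or ND 2, and 8 without HFD 2.

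Gstt1 was at 73.8 ± 15.9 FPKM in HFD and 28.8 ± 5.55 in FSP (SD, n = 4 each), a log2 change of −1.32 (SE 0.22, limma adjusted p = 0.0135). The call was lost without FSP 4 (limma adjusted p up to 0.133 over the alternatives). Gstm6 was at 31.0 ± 11.6 FPKM in HFD and 9.63 ± 5.12 in FSP, a change of −1.63 (limma adjusted p = 0.029). Ugt2b5 was at 42.5 ± 26.3 in HFD and 9.08 ± 3.18 in FSP, a change of −1.94 (limma adjusted p = 0.0303). In these 3 genes each FSP library lay below each HFD library, and the calls of Gstm6 and Ugt2b5 were each lost without any 1 of 7 libraries (HFD 1, 3 or 4, FSP 1, 2 or 4, or ND 2), with limma adjusted p up to 0.256 and 0.18. Mgst3, Gstm1, Gstm4 and Gstm5 also did not overlap but did not pass, which makes 7 of 43 members without overlap below HFD, against 2.30% of all genes tested.

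Each of the 7 mu-class GSTs had a negative change in FSP against HFD, from −0.37 (Gstm5) to −1.63 (Gstm6), and 1 passed. Gstm3 was at 41.3, 27.0, 49.6 and 31.1 FPKM in FSP, against 49.4, 73.7, 160 and 193 in HFD, a change of −1.49 (SE 0.43, limma adjusted p = 0.0849). FSP 3 lay just above HFD 1 there. Gstm1, named here after its values were seen, was at 50.8, 58.0 and 63.8 FPKM in ND, 33.6, 52.6, 76.4 and 88.3 in HFD and 33.0, 18.9, 31.4 and 31.6 in FSP. FSP lay below both other groups, with a change of −1.04 from HFD (limma adjusted p = 0.0609) and a limma adjusted p of 0.142 against ND.

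Members higher in HFD that did not pass in FSP against HFD had a range of changes. Gsta1 changed by −1.17 (limma adjusted p = 0.0678, past the threshold in 6 of 21 alternatives), Gsta2 by −1.44 (0.132), Gstm7 by −1.05 (0.066), Gstk1 by −0.55 (0.156), Mgst3 by −0.43 (0.108) and Ces2g by −1.16 (0.276), with the limma adjusted p in brackets. Sult6b2 had the largest change, −3.27 (SE 1.08, limma adjusted p = 0.126), and Gstt2 changed by −0.15 (limma adjusted p = 0.545). Ugt2a3 was at 73.9 ± 26.3 FPKM in HFD and 70.0 ± 22.9 in FSP (SD, n = 4 each), a change of −0.04 (SE 0.41, limma adjusted p = 0.975). Whether these members differed from Gstt1, Gstm6 and Ugt2b5 in this comparison was not tested. Distal markers were again different between the groups, with 6 of 10 higher in FSP and 0 lower, as was 1 of 10 proximal markers, the folate transporter Slc46a1, which was lower.

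**Figure D5:**
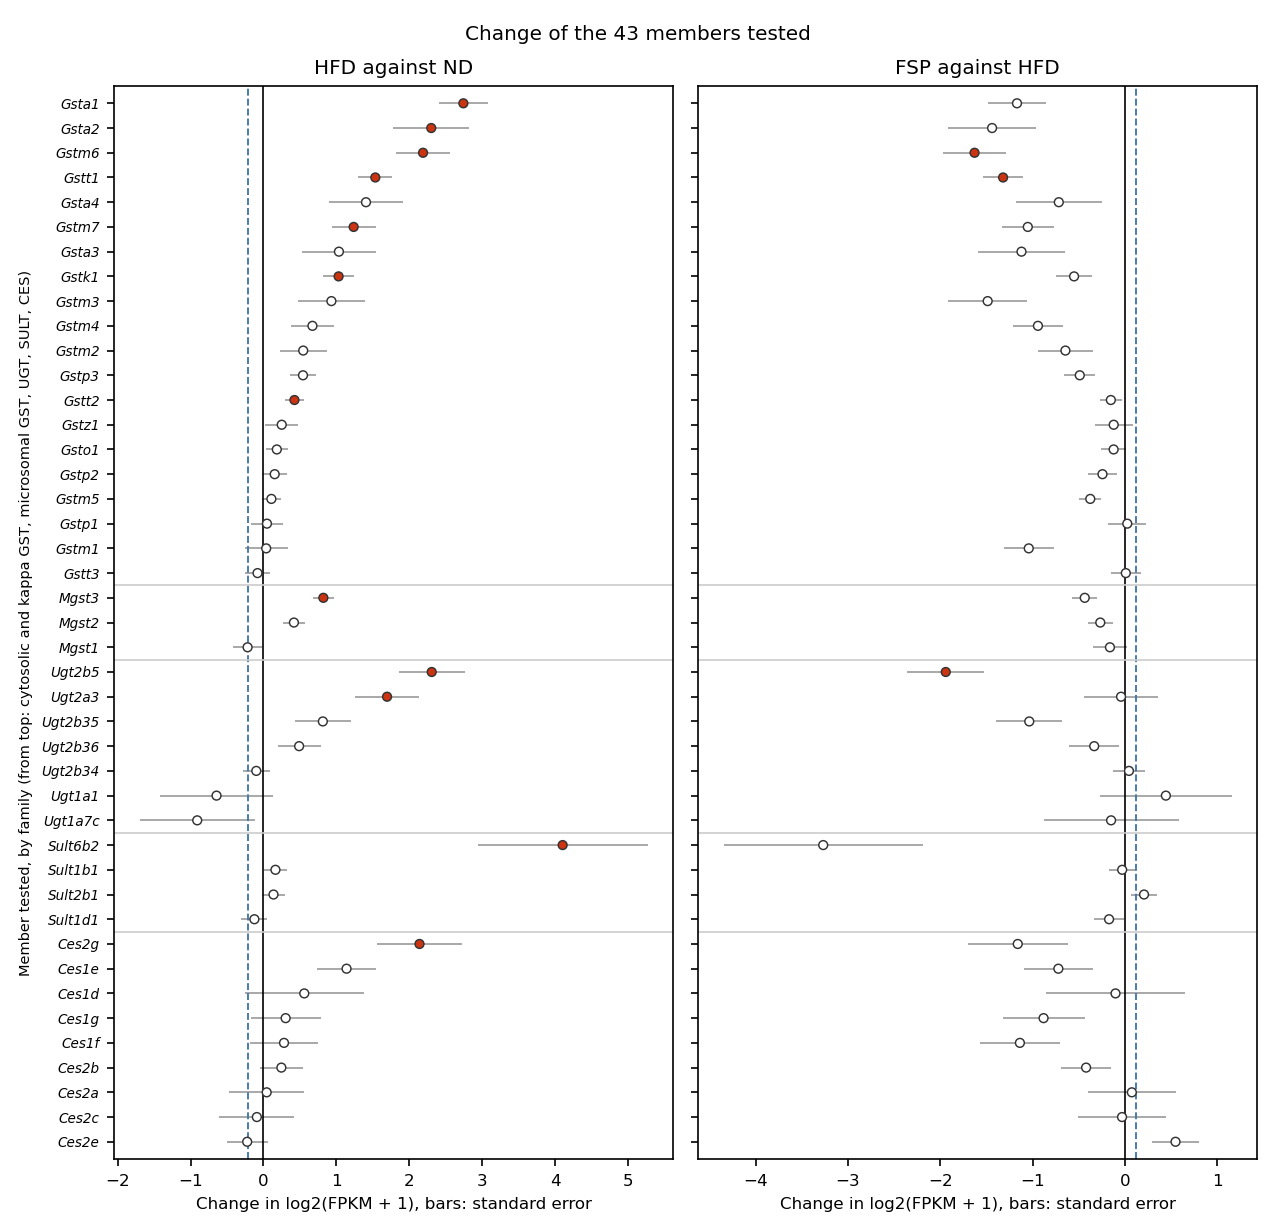
Log2 change of the 43 members tested in HFD against ND (left) and FSP against HFD (right), with bars for the standard error, grouped by family and ordered by the left panel. Filled points passed the threshold, the dashed line is the median of all genes tested (−0.21 and 0.12), and both panels share the HFD libraries.

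FSP against ND asks whether members differed between the group given the powder and the normal diet group. Of the 43 members tested 0 passed by limma in either direction, against 0.699% higher and 0.33% lower over all genes, and 6 had an unadjusted p under 0.05. The median change was 0.12 over the tested members and −0.07 over all genes. Gsta1 came closest: its FSP mean of 85.3 ± 34.0 FPKM (SD, n = 4) was 3.17-fold that of ND without overlap (log2 change 1.57, SE 0.34, limma adjusted p = 0.0542), and it passed in 9 of 21 alternatives. Leaving out HFD 1, HFD 2, HFD 4 or ND 3 brought the count of members higher to 1, and leaving out HFD 1 the count lower to 1. Ugt2a3 had a change of 1.65 (SE 0.44, limma adjusted p = 0.108), also without overlap. Without overlap 4 members lay above ND (Gsta1, Gsta2, Gsta4 and Ugt2a3), against 5.57% of all genes, and 3 below (Gstm1, Gstm5 and Mgst1), against 10.9%. The proximal list had 2 of 10 markers higher in FSP than in ND and the distal list 0 of 10 in either direction by limma (4 at an unadjusted p under 0.05).

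The 11 members between 0.1 and 1 FPKM entered no test above. Of these, 2 had libraries that did not overlap in both HFD against ND and FSP against HFD, and the share of all genes at this level that do so was not counted. Ces3a, a carboxylesterase best known from liver, was at 0.03, 0.08 and 0.04 FPKM in ND, 1.80, 0.45, 1.75 and 3.14 in HFD and 0.28, 0.03, 0.39 and 0.18 in FSP. Its neighbour Ces3b was listed at 0 in each ND library and was at 0.47, 0.16, 0.39 and 0.37 FPKM in HFD and 0.07, 0.00, 0.09 and 0.04 in FSP. With no filter on low values Ces3a passed in HFD against ND (log2 change 1.32, limma adjusted p = 0.0239) and Ces3b in HFD against ND (0.43, limma adjusted p = 0.00811) and FSP against HFD (−0.36, limma adjusted p = 0.0493). Of the hepatocyte markers, Alb was at 0.03 to 0.72 FPKM in 10 libraries and 3.06 in HFD 1. Serpina1a, Fgb and Ahsg were also highest in HFD 1, at 0.53, 0.74 and 0.96 FPKM. Apoh averaged 0.62 FPKM in ND and 0.61 in HFD, with overlap. The 1 hepatocyte marker tested, Ttr, was at 0.66 to 0.69 FPKM in ND, 1.66 to 3.60 in HFD and 1.21 to 1.59 in FSP, without overlap, and was higher in HFD than in ND (log2 change 1.05, limma adjusted p = 0.00211). The part of these markers in the values of Ces3a and Ces3b was not tested. The remaining 9 did not pass in this fit.

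Among the 14 tested genes that supply the cosubstrates, 2 were higher and 2 lower in HFD than in ND. Over all genes tested 5.36% were higher and 15.1% lower, so the lower count was near that share. The median change was 0.16, against −0.21 over all genes. In FSP against HFD 1 of the 14 was higher and 2 were lower, against 2.83% and 0.913% of all genes tested. Gclm, the modifier subunit of the enzyme that limits glutathione synthesis, was at 40.3, 46.3 and 51.5 FPKM in ND, 97.8, 94.0, 94.2 and 100 in HFD and 64.8, 74.5, 72.1 and 55.8 in FSP, and the 3 groups did not overlap. It rose by 1.06 in HFD (limma adjusted p = 0.000725) and fell by 0.53 in FSP against HFD (limma adjusted p = 0.0313). Gsr, which regenerates reduced glutathione, was at 140, 133 and 111 FPKM in ND, 10.3, 31.6, 27.6 and 26.4 in HFD and 35.8, 49.2, 57.3 and 60.7 in FSP. It fell by 2.47 in HFD (limma adjusted p = 0.00087). Ugdh, which makes the UDP-glucuronic acid that UGTs use, rose by 0.91 (limma adjusted p = 0.00673), with ND at 107 to 119 FPKM and HFD at 159 to 279, and fell by 0.76 in FSP against HFD (limma adjusted p = 0.0362). Papss1, which makes the sulfate donor of the SULTs, fell by 1.02 (limma adjusted p = 0.0061) and rose by 0.99 in FSP against HFD (limma adjusted p = 0.0206). Papss2, which makes the same donor, was at 41.8 to 45.5 FPKM in ND, 52.0 to 171 in HFD and 48.9 to 84.1 in FSP. Its changes of 1.07 in HFD against ND, without overlap, and −0.64 in FSP against HFD did not pass (limma adjusted p = 0.052 and 0.318).

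Of 14 sensors and regulators of these enzymes 2 were higher and 3 lower in HFD than in ND (median −0.19), against 5.36% and 15.1% of all genes. In FSP against HFD 0 of them passed by limma (4 at an unadjusted p under 0.05), while 3.74% of all genes did. Nr1i3, the receptor CAR, a regulator of UGT and SULT genes, was at 5.41, 9.20 and 14.0 FPKM in ND and 27.4 to 35.6 in HFD and rose by 1.65 (limma adjusted p = 0.00245). Cebpb rose by 0.57 (limma adjusted p = 0.0145). Nr1h4, the bile acid receptor FXR, fell by 1.76 (limma adjusted p = 0.000918), Hnf4a by 0.73 (limma adjusted p = 0.00879) and Rxra by 0.68 (limma adjusted p = 0.0346). Nfe2l2, which encodes NRF2, and Ahr, the dioxin receptor, did not pass in any comparison. Nr1h4 was the 1 sensor to pass in FSP against ND, where it fell by 1.33 (limma adjusted p = 0.0247).

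Of 15 tested genes of other conjugation and hydrolysis enzymes 5 were higher and 1 lower in HFD than in ND (median 0.16), against 5.36% and 15.1% of all genes. Aadac, an arylacetamide deacetylase that shares substrates with the CESs, was at 9.56, 25.3 and 49.1 FPKM in ND, 220, 218, 297 and 353 in HFD and 111, 78.2, 215 and 89.6 in FSP. The 3 groups did not overlap, although FSP 3 lay just below HFD 2, at 215 against 218, and the change from ND was 3.47 (SE 0.47, limma adjusted p = 0.000988). Ephx2, soluble epoxide hydrolase, rose by 1.94 (limma adjusted p = 0.00385), with ND at 48.3 to 148 FPKM and HFD at 223 to 435. Bche, Nat8 and Tpmt rose by 0.95, 0.80 and 0.56, and Inmt fell by 1.13. In FSP against HFD Tpmt, a thiopurine methyltransferase, fell by 0.55 (limma adjusted p = 0.0245), and in FSP against ND Aadac was higher by 2.25 (limma adjusted p = 0.0456). Of the 21 calls in these 3 lists 9 held in each alternative (Gclm, Gsr, Papss1, Ugdh, Hnf4a, Nr1h4, Nr1i3, Aadac and Ephx2 in HFD against ND), and each of the other 12 was lost without at least 1 single library (limma adjusted p up to 0.304).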

How the data were processed

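RNA of mouse small intestine was measured by RNA-seq. TRIzol extraction and the VAHTS Universal V6 RNA-seq kit are named per the labels' protocols, and fastp, HISAT2, HTSeq, R 3.2.0 and mm10 per the submitters' processing notes. Which annotation, strand setting and FPKM tool were used is not given in the sources used here. FPKM per gene is what the authors deposited, and since it scales by library size, an abundant class of RNA lowers the rest. The single-library tables held the same values for the members; those of ND and HFD did not list Sult6b1.

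Groups came from sample titles. limma 3.58.1 in R 4.3.3 was fitted with an intensity trend to log2(FPKM + 1) of all 11 libraries, over 10296 genes with a mean of at least 1 FPKM, and was tested on simulated data. P-values were two-sided and Benjamini-Hochberg adjusted within a comparison. Shared 50-base windows compare the longest coding transcript of a member with the coding transcripts of the others in GENCODE (74 members matched) and positions from RefSeq, for 74 of 75 members. Genes named are members past the threshold, the 4 most abundant of each family, and listed pathway genes past the threshold; Gsta3, Gsta4, Gstz1, Gstp2, Gstm1, Gstm4, Gstm5, Gstp3, Gstt3, Ugt1a1, Ugt2b35, Ugt2b36, Ces1d, Ces1e, Ces1g, Ces2b, Ces3a, Ces3b, members named only for a low level, a shared sequence or a motif (such as Ugt2b38, Sult1e1, Ugt1a2 and Ugt3a1), Papss2, Nfe2l2, Ahr and the marker genes were named after their values were seen. The member families and the lists were chosen with earlier results of these data known, while membership within a family went by symbol alone. Of the other marker lists, 2 of 4 tested colon genes were lower in HFD than in ND, 1 of 8 adipocyte genes (Cidec), 1 of 1 hepatocyte genes (Ttr) and 1 of 13 mitochondrially encoded genes (ND4L) were higher, 1 of 6 epithelial genes was higher and 1 lower, 0 of 1 pancreatic acinar genes passed (0 at an unadjusted p under 0.05), and 0 of 5 macrophage and 0 of 5 smooth muscle genes passed by limma (0 of either at an unadjusted p under 0.05). The 21 alternatives changed the pseudocount, filter, scaling, samples fitted or replicate block, or left out libraries.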

Additional observations from a re-analysis of the deposited data

Results flagged for a closer look

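Of 52 sets of 4 libraries examined (the 26 named members in HFD and in FSP), 1 had a library far from the others. Sult6b2 was at 7.59 FPKM in FSP 3, while the other FSP libraries lay between 0.057 and 0.301 FPKM. Chance sets apart a library in about 5% of such sets. FSP 3 also had the highest FSP value of the proximal marker list (7.74 on the mean log2(FPKM + 1) scale, against 7.02 to 7.33).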

How the results depend on the processing

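Of 15 calls of members, 7 held in each of 21 alternatives: Gsta1, Gstt1, Gstm6, Mgst3, Ugt2b5, Gstk1 and Gsta2 in HFD against ND (Gsta2 in the 20 that tested it). Gsta2 had an ND mean of 0.43 FPKM, below the filter level, and was not tested with a mean of at least 5 FPKM. Members higher in HFD against ND numbered 12, 19 with quantile normalization and 7 to 16 with a library left out (7 without ND 1 or ND 2). Members lower in FSP against HFD numbered 3, 8 with median-ratio scaling, 7 without mitochondrially encoded genes, 10 with quantile normalization, 1 with only the 2 groups fitted, 0 without FSP 1 and FSP 4 and 0 to 8 with a library left out (0 without FSP 4, 8 without HFD 2). Members higher in FSP against ND numbered 0, and 1 with a mean of at least 5 FPKM, median-ratio scaling, quantile normalization, mitochondrial genes left out or 2 groups fitted, and 0 to 1 with a library left out; members lower numbered 0 to 1 (1 without HFD 1). Over all genes, calls in HFD against ND numbered 2109, and 852 to 2688 with a library left out. Those in FSP against HFD numbered 385, 117 without the filter, 76 with 2 groups fitted, 2 without FSP 1 and FSP 4 and 48 to 461 with a library left out. Those in FSP against ND numbered 106, 58 without the filter, 192 with quantile normalization, 27 without FSP 1 and FSP 4 and 13 to 205 with a library left out. The change of Ugt2a3 in FSP against HFD, −0.04, was 0.058 with equal totals and 0.057 without FSP 1 and FSP 4, and −0.34 to 0.10 over the alternatives. The causes were not tested.

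Same-numbered libraries share only a number (deviations correlated from −0.10 to 0.45 over 10 pairs, and 0 of 11 libraries correlated best with their own number). With the number as a replicate block 12 members were higher in HFD against ND, 7 lower in FSP against HFD and 2 higher in FSP against ND. Members below 1 FPKM rest on few fragments, and whether depth or the number of libraries limits other calls was not tested.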
